A study of Mus musculus with 2 samples.

Results

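The genes described here are 10 genes of the prostaglandin and lipoxygenase pathways, *Ptgs1*, *Ptgs2*, *Ptges*, *Ptger2*, *Ptger4*, *Hpgd*, *Alox5*, *Alox5ap*, *Alox15* and *Ltc4s*, among the 32589 genes listed in the single-cell RNA-Seq count matrices. They were found by symbol, and the set was chosen from the contrast between the anti–PD-1 and PBS libraries with results of that contrast in view, so their differences between the libraries are given as a description, without a test. Both libraries came from tumor-bearing livers of shYT mice with cholangiocarcinoma (CCA), a cancer of the bile duct. Tumors were raised by hydrodynamic tail vein injection of the Notch intracellular domain and AKT (N-AKT model). In shYT mice, a transactivator made in the whole body (rtTA3 under the *CAG* promoter) lets doxycycline switch on shRNAs against *Yap1* and *Wwtr1* (TAZ). Doxycycline was given from day 25 after injection, and livers were taken on day 33. The group shYT_PBS received PBS, and the group shYT_antiPD1 received the PD-1–blocking antibody RMP1-14 on days 26, 29 and 32. Both groups share the shRNAs and doxycycline, which leaves no contrast for the loss of YAP/TAZ. The labels give neither the shYT line nor the age, the sex or the number of animals per library. There was 1 library per group, so no difference has a replicate check, and all intervals cover counting error only.

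Prostaglandins are lipid signals made from arachidonic acid, which cyclooxygenases convert to an unstable intermediate and terminal synthases then turn into individual prostanoids. Prostaglandin E2 acts through the EP receptors and is removed by oxidation, and it is known in tumors and inflamed tissue for effects on vessels, fever, pain and the activity of T cells and myeloid cells. Lipoxygenases oxidize the same fatty acid to leukotrienes, which recruit and activate leukocytes, and to hydroxylated lipids that also serve as precursors of mediators of resolution.

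The matrices held 19397 barcodes for PBS and 19451 for anti–PD-1. Of these, 15531 (80.1%) and 16360 (84.1%) had 500 to 5000 detected genes and at most 10% mitochondrial unique molecular identifiers (UMIs), with 79090376 and 77674743 UMIs in total and medians of 3159 and 2990 UMIs per cell. Cells were assigned by a gate on marker genes that held no gene of the set, which gave a class to 83.7% of PBS and 78.7% of anti–PD-1 cells. Class names below stand for cells like that type by these markers, and 12 of 20 classes had at least 50 cells in both libraries. No doublet caller was run. The libraries stood apart in sex-linked transcripts, since *Xist* had 18452 UMIs in PBS and 11 in anti–PD-1 while 4 Y-linked genes had 3113 and 15323, so the PBS library held RNA of both sexes. Values in Y-positive cells, defined by a UMI of these Y-linked genes without any of *Xist* (1481 and 7861 cells), are therefore given beside results that they bear on. The libraries shared 219 barcode strings, 145 of them among kept cells. In the tumor or biliary epithelial class, *Yap1* had 9.77 CPM (59 UMIs) in PBS and 11.2 CPM (27 UMIs) in anti–PD-1, and *Wwtr1* 11.9 and 7.91 CPM, in mice that carried shRNAs against both. A list of 14 early response and dissociation genes moved with the groups, as did neutrophil and Kupffer cell marker RNA in other cells, and these are given beside the results they touch.

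Levels are in CPM, the UMIs of a gene per 1000000 UMIs of the same class and library. Ratios are log2 of anti–PD-1 over PBS after 5 CPM were added to each, so 1 stands for a doubling on this scale and low genes are understated. A ratio in parentheses is followed by its interval, made from the exact Poisson 95% intervals of both levels. A gene counted as measured in a class when both libraries together held at least 20 of its UMIs. The share of all measured genes past 2-fold gives the background of each class. In macrophages, 2.12% of 14228 measured genes were at least 2-fold higher with anti–PD-1 and 0.323% lower, and of the 10 genes of the set *Ptgs2*, *Ptger4* and *Alox15* were higher and none was lower, although *Hpgd* passed 2-fold downward in Y-positive macrophages. In Kupffer cells, the resident macrophages of the liver, the background was 1.74% higher and 0.201% lower, and the same 3 genes were higher. In monocytes, where 3.19% of all genes were higher and 1.9% lower, *Ptgs2*, *Alox15* and *Ltc4s* were higher and *Ptger2* was lower. Some of these genes reached the minimum of UMIs through the anti–PD-1 library only. They were *Ptgs2* (9 PBS UMIs) and *Alox15* (6) in Kupffer cells, and *Alox15* (2) and *Ltc4s* (12) in monocytes. *Ptger2* in monocytes (9 anti–PD-1 UMIs) reached it through the PBS library only. Which genes were measured thus depended partly on the library with the higher level. Neutrophils had a background of 2.18% and 4.4%, with *Ptgs2* higher and *Ptgs1* and *Ltc4s* lower. The median ratio of the 10 genes was −0.32 in macrophages, −0.07 in Kupffer cells, 0.17 in monocytes and −0.24 in neutrophils, beside −0.13, −0.10, −0.13 and −0.27 over all measured genes, so the set as a whole did not move one way.

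In the other classes fewer genes passed 2-fold. In fibroblasts *Ptgs2* and *Hpgd* of 7 measured genes were higher, against backgrounds of 3.36% higher and 3.28% lower. In conventional type 1 dendritic cells (cDC1), *Ptgs2* was higher and *Ptger2* lower among 6 measured, against 3.62% and 4.31%. B cells had *Ptgs2* and *Alox15* higher among 8 measured (background 1.74% and 2.35%). In B cells *Ptgs2* (10 PBS UMIs) and *Alox15* (2) reached the minimum of UMIs through the anti–PD-1 library only. *Ptger2* in cDC1 (9 anti–PD-1 UMIs) reached it through the PBS library only. *Ptgs2* alone was higher in T cells among 10 measured (1.22% and 0.639%), in NK cells among 5 (2.52% and 2.36%) and in tumor or biliary epithelial cells among 9 (2.66% and 2.37%). In endothelial cells *Ptger4* alone was higher among 5 measured (3.2% and 5.93%), and in plasma cells the only measured gene, *Alox5ap*, was within 2-fold. As the set was chosen from this contrast, nothing is read from these counts.

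**Figure D1:**
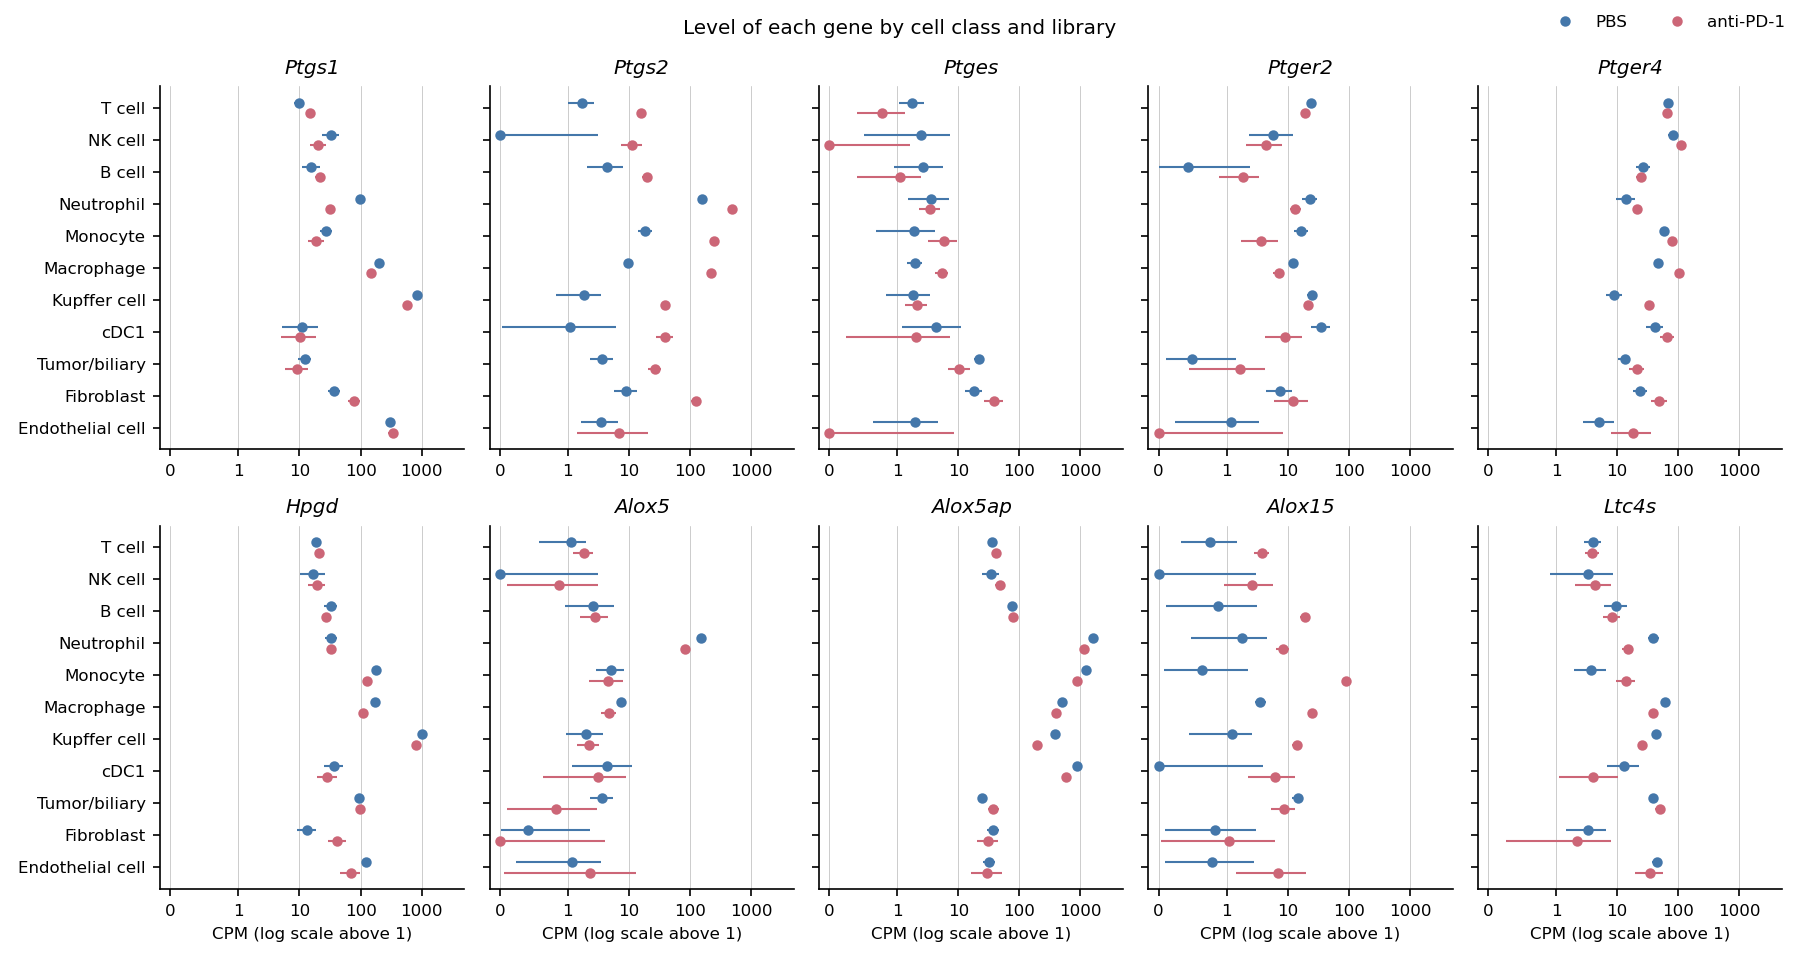
Level of each gene in CPM (x axis, log scale above 1 and linear below) by cell class (y axis) in the PBS (blue) and anti–PD-1 (red) libraries, with exact Poisson 95% intervals as bars. *Ptgs2* lies to the right in anti–PD-1 in all 11 classes drawn, with endothelial cells at 9 and 3 UMIs below the minimum, while *Ptgs1*, *Hpgd* and *Alox5ap* lie close together or to the left in macrophages and Kupffer cells.

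The cyclooxygenases open the prostanoid branch. *Ptgs1* encodes COX-1, which many tissues make constitutively, and *Ptgs2* encodes COX-2, which inflammatory signals, growth factors and stress induce. In GRCm38, *Ptgs2* lies on the forward strand at chr1:150100031-150108227 and *Ptgs1* on the forward strand at chr2:36230426-36252272. The receptor gene *Ptger4* lies on the reverse strand at chr15:5206661-5244187. Their promoters are shown because *Ptgs2* and *Ptger4* were higher with anti–PD-1 by summed UMIs in both macrophages and Kupffer cells. *Ptgs1*, whose product has the same enzyme activity as that of *Ptgs2*, was not. In Kupffer cells the *Ptger4* ratio was 0.35 after cells were thinned to 1000 UMIs each, and the limits of both genes there are given below. RefSeq (GRCm38.p6) held promoters for 8 of the 10 genes. Each line gives the 250 bases before the start on the gene's own strand, at chr1:150099781-150100030, chr2:36230176-36230425 and chr15:5244188-5244437, with motif matches on either strand in capitals.

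Ptgs2: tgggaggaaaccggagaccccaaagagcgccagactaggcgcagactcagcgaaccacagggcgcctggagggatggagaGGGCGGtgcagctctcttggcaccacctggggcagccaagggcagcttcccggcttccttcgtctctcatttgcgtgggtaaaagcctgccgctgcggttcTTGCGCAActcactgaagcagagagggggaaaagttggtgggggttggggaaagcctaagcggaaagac
Ptgs1: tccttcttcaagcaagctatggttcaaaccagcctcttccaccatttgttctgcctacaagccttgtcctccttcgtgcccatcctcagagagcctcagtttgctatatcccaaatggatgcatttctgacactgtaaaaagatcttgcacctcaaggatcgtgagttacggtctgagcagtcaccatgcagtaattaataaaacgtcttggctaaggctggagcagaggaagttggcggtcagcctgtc
Ptger4: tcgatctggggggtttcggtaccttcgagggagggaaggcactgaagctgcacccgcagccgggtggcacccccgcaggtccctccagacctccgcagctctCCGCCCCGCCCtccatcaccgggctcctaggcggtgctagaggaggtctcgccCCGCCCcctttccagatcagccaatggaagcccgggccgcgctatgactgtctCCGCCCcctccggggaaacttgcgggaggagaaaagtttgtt

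The *Ptgs2* window held a GC box (GGGCGG) 170 bases before the start and a C/EBP site (TTGCNNAA, where N is any base) 69 bases before it. An E-box (CACGTG) 17 bases after the start overlapped a CRE half-site (TGACG) on the reverse strand 14 bases after it, both downstream of the printed bases. The *Ptger4* window held 4 GC boxes, at 148, 143, 95 and 42 bases before the start, and the *Ptgs1* window held none of the 7 motifs searched. Among 32851 mouse promoters of 300 bases, 35.7% held a GC box, 10.8% a C/EBP site, 7.15% an E-box and 20.8% a CRE half-site. The other motifs searched were the TATA box (TATAAA, 13.6% of promoters), the AP-1 site (TGANTCA, 7.81%) and the NF-kB consensus (8.46%), which had no match in these 3 windows. These matches are of letters only and describe no binding.

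*Ptgs2* was measured in 10 classes, with log2 ratios from 1.41 in B cells (0.87 in Y-positive B cells) to 3.94 in macrophages. In T cells, B cells, NK cells, Kupffer cells and cDC1 it had 0 to 18 UMIs in PBS and reached the minimum of 20 UMIs only through the anti–PD-1 library, so the number of classes is a description that this minimum partly fixes. In macrophages it had 9.71 CPM in PBS (274 UMIs in 3301 cells, 95% interval, 8.60 to 10.9) and 221 CPM in anti–PD-1 (2518 UMIs in 1362 cells, 213 to 230), a log2 ratio of 3.94 (3.81 to 4.07). Y-positive macrophages had 21 UMIs in 355 cells and 1827 UMIs in 746 cells, a ratio of 4.38 (4.00 to 4.73). *Ptgs2* was thus also higher in anti–PD-1 among Y-positive macrophages, and the part of sex in the difference was not tested. In monocytes *Ptgs2* had 18.3 CPM in PBS and 244 CPM in anti–PD-1 (3.42, 3.10 to 3.74), and in Kupffer cells 1.81 and 39.7 CPM (2.71, 2.38 to 2.97). The level in Kupffer cells with anti–PD-1 was below that in macrophages and monocytes of the same library, and the intervals did not overlap.

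Neutrophils had the highest *Ptgs2* level of any class with at least 50 cells in both libraries, 159 CPM in PBS (360 UMIs) and 480 CPM in anti–PD-1 (3468 UMIs), with a log2 ratio of 1.57 (1.42 to 1.72). They held 36.3% of all *Ptgs2* UMIs of the PBS library and 33.7% of the anti–PD-1 library, and macrophages held 27.6% and 24.4%. The division of *Ptgs2* among these classes was therefore close in both libraries, although neutrophils rose from 8.06% to 17.8% of cells and macrophages fell from 21.3% to 8.33%. Over the whole library *Ptgs2* had 12.6 CPM in PBS and 133 CPM in anti–PD-1 (log2 ratio 2.97). Composition was then taken as the share of each class in the UMIs of a library, not in its cells. With the anti–PD-1 levels of each class weighted by the PBS composition the library value was 141 CPM (3.06), and with the PBS levels weighted by the anti–PD-1 composition it was 20.8 CPM (0.56). The classes held different clusters in the libraries, as given below, so the levels within classes include that mix.

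Outside macrophages, monocytes and neutrophils, *Ptgs2* had 9.13 CPM in PBS and 125 CPM in anti–PD-1 in fibroblasts (3.20, 2.71 to 3.67), where 1 cell held 42 of the 114 anti–PD-1 UMIs. It had 3.64 and 26.6 CPM in tumor or biliary epithelial cells (1.87, 1.45 to 2.26), 1.09 and 38.9 CPM in cDC1 (2.85, 1.89 to 3.34) and 1.69 and 15.6 CPM in T cells (1.62, 1.38 to 1.83). In NK cells there was no UMI in PBS and 26 in anti–PD-1, at least 4.52-fold higher when the PBS library is set to a floor of 3 counts. These levels in anti–PD-1 were all below that of macrophages of the same library. Conventional type 2 dendritic cells (cDC2), a class with 175 and 42 cells, had 33.9 CPM (45 UMIs) and 270 CPM (93 UMIs, 2.83, 2.35 to 3.31). The cDC2-like cluster c12, of the clusters described below, also held 98.4% and 94.0% of cDC1. It had 29.8 and 202 CPM (2.57, 2.34 to 2.80), so dendritic cells were not uniformly low.

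With every cell thinned to 1000 UMIs, without the shallower ones, 0.934% of PBS macrophages (exact binomial 95% interval, 0.631% to 1.33%) and 12.5% of anti–PD-1 macrophages (10.7% to 14.5%) had a *Ptgs2* UMI. The shares were 9.47% and 26.1% in neutrophils, 0.862% and 13.7% in monocytes and 0.185% and 2.34% in Kupffer cells. T cells, taken as a class with little *Ptgs2*, had 0.159% (0.0517% to 0.371%) and 1.51% (1.13% to 1.98%), from median depths of 2756 and 3666 UMIs before thinning against 7901 and 7659 in macrophages. The T cell share in anti–PD-1 serves as the background there, and the macrophage, monocyte and neutrophil shares lay above it in the same library. In Kupffer cells the anti–PD-1 interval (1.57% to 3.35%) overlapped that of T cells.

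Other RNA moved with *Ptgs2*. Of the 14 early response and dissociation genes, such as *Fos*, *Jun* and *Hspa1a*, the number at least 2-fold higher in anti–PD-1 was 10 in macrophages, 9 in Kupffer cells, 7 in monocytes, 2 in neutrophils, 5 in T cells, 13 in fibroblasts and 12 in tumor or biliary epithelial cells. Their summed level was 5752 CPM in PBS and 15105 CPM in anti–PD-1 macrophages. The 8 neutrophil markers summed to 254 and 1009 CPM in T cells, 305 and 1621 CPM in B cells and 423 and 719 CPM in macrophages, against 83538 and 87794 CPM in neutrophils. Their part in the *Ptgs2* ratios was not tested.

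**Figure D2:**
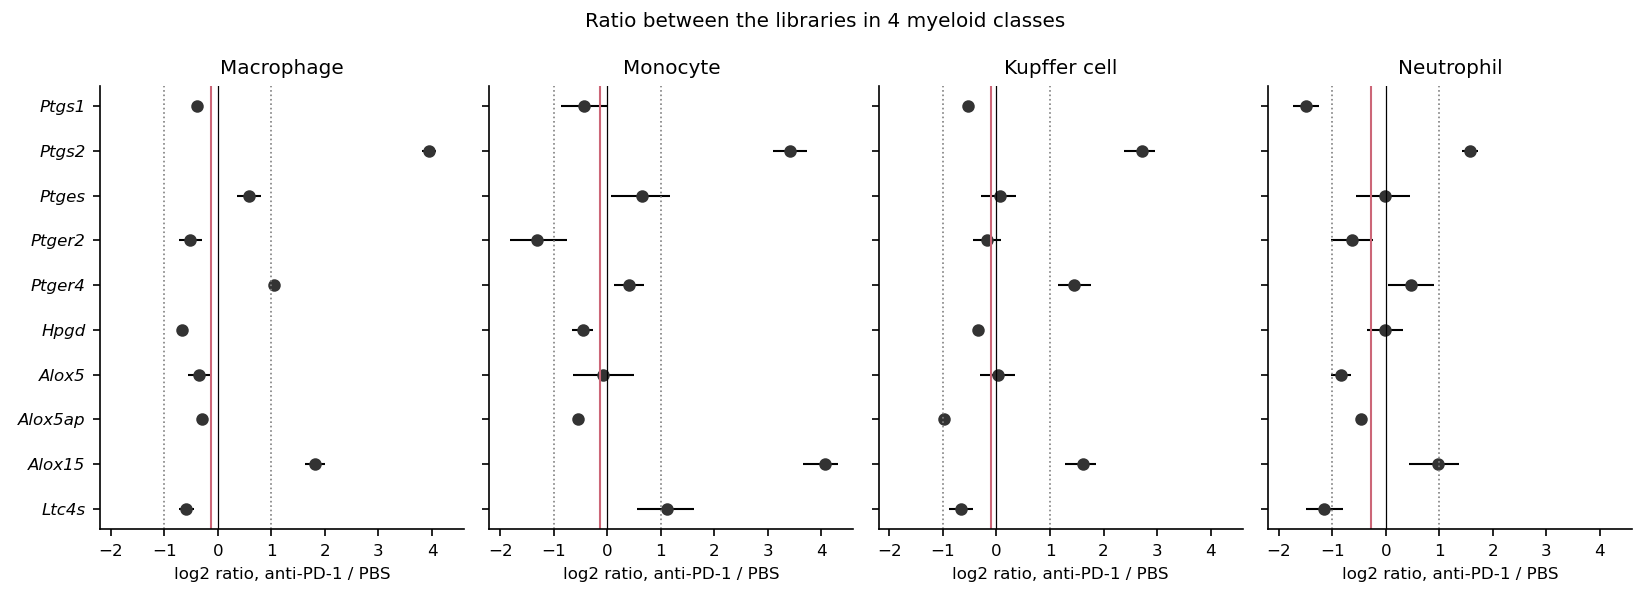
Log2 ratio of anti–PD-1 over PBS (x axis) for the 10 genes (y axis) in macrophages, monocytes, Kupffer cells and neutrophils, with bars for counting intervals, dotted lines at 2-fold and a red line at the median of all measured genes of the class. *Ptgs2* is beyond the upper dotted line in all 4 panels, and *Ptgs1* and *Ltc4s* are beyond the lower one in neutrophils only.

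**Figure D3:**
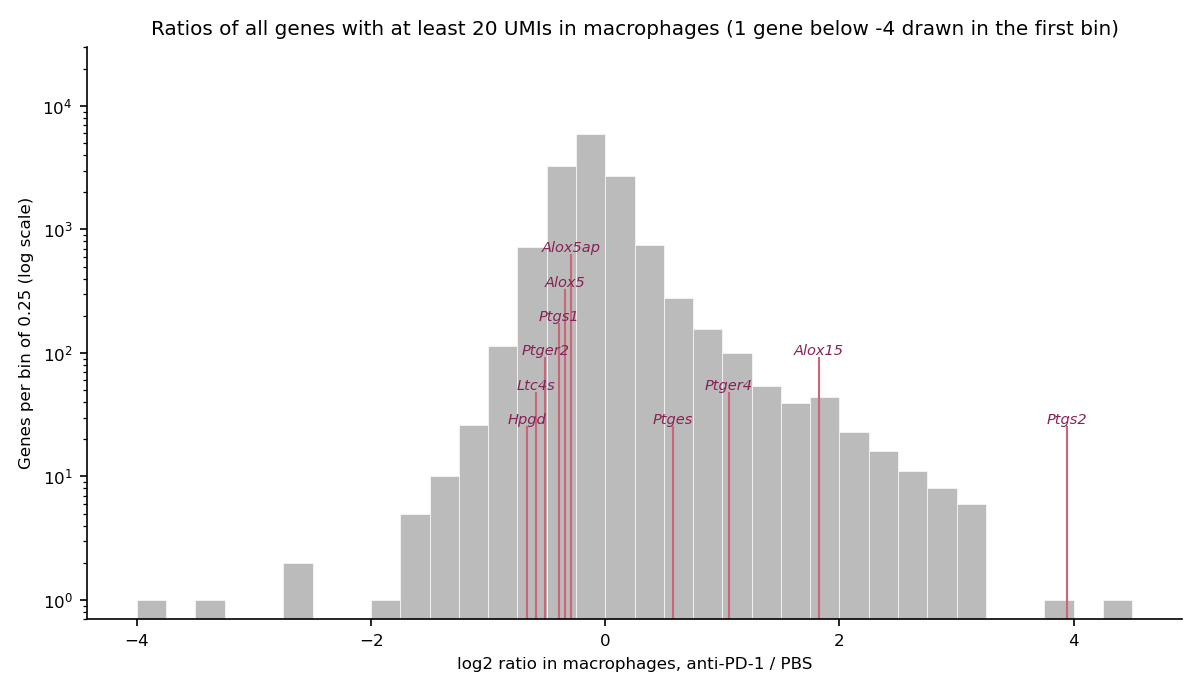
Number of genes (y axis, log scale) by log2 ratio of anti–PD-1 over PBS in macrophages (x axis, bins of 0.25), over the 14228 genes with at least 20 UMIs, with red lines at the 10 genes of the set. 6 of the lines lie between −0.67 and −0.29, below the median of −0.13 over all measured genes, and the line of *Ptgs2* stands at 3.94, where the histogram holds single genes.

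Clusters were made without the 10 genes, since the gate's classes held different cells in the libraries. Of the PBS macrophages, 80.6% lay in cluster c1, led by *Ms4a7*, *Trem2* and *Gpnmb*, and of the anti–PD-1 macrophages 60.4% lay in c8, led by *Ccl12*, *Ccl8* and *Cxcl2* among others. Within c1, *Ptgs2* had 8.67 CPM in PBS and 79.2 CPM in anti–PD-1 (137 cells, log2 ratio 2.62, 2.31 to 2.92). Within c8 it had 42.2 CPM in PBS (84 cells) and 287 CPM in anti–PD-1 (2.63, 2.14 to 3.15), and within the cycling macrophage cluster c23 it had 12.1 and 134 CPM (3.02, 2.47 to 3.56). The ratio within each cluster was thus lower than the 3.94 of the whole class, and c8, which held most anti–PD-1 macrophages, had the higher level in both libraries. Within the monocyte cluster c16 the ratio was 2.59 and within the Kupffer cell cluster c6 it was 2.61.

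Neutrophil clusters differed. In c3, led by *S100a9*, *S100a8* and *Retnlg*, *Ptgs2* had 436 CPM in the 113 PBS cells and 380 CPM in the 2298 anti–PD-1 cells (log2 ratio −0.20, −0.49 to 0.11). Cluster c11 held 84.3% of PBS neutrophils and had 152 CPM in PBS and 830 CPM in its 13 anti–PD-1 cells (23 UMIs, ratio 2.41, 1.74 to 3.02). In c17, led by *Slfn4* and *Acod1* and including *Il1b*, the 20 PBS cells had 85.0 CPM (5 UMIs) and the 538 anti–PD-1 cells 997 CPM (3.48, 2.30 to 4.94). In c22 the levels were 91.0 and 201 CPM (1.11, 0.46 to 1.81). *Ptgs2* was thus higher with anti–PD-1 in 3 of the 4 neutrophil clusters, but not in c3, which held 75.4% of anti–PD-1 neutrophils. Of these, c11 and c17 each had few cells in 1 library. In c22 T cell markers also averaged 3.71 log2 units above the median cluster, beside 5.21 for neutrophil markers. In c17 B cell markers averaged 3.06, beside 6.01. The division of neutrophils among clusters also differed between the libraries.

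**Figure D4:**
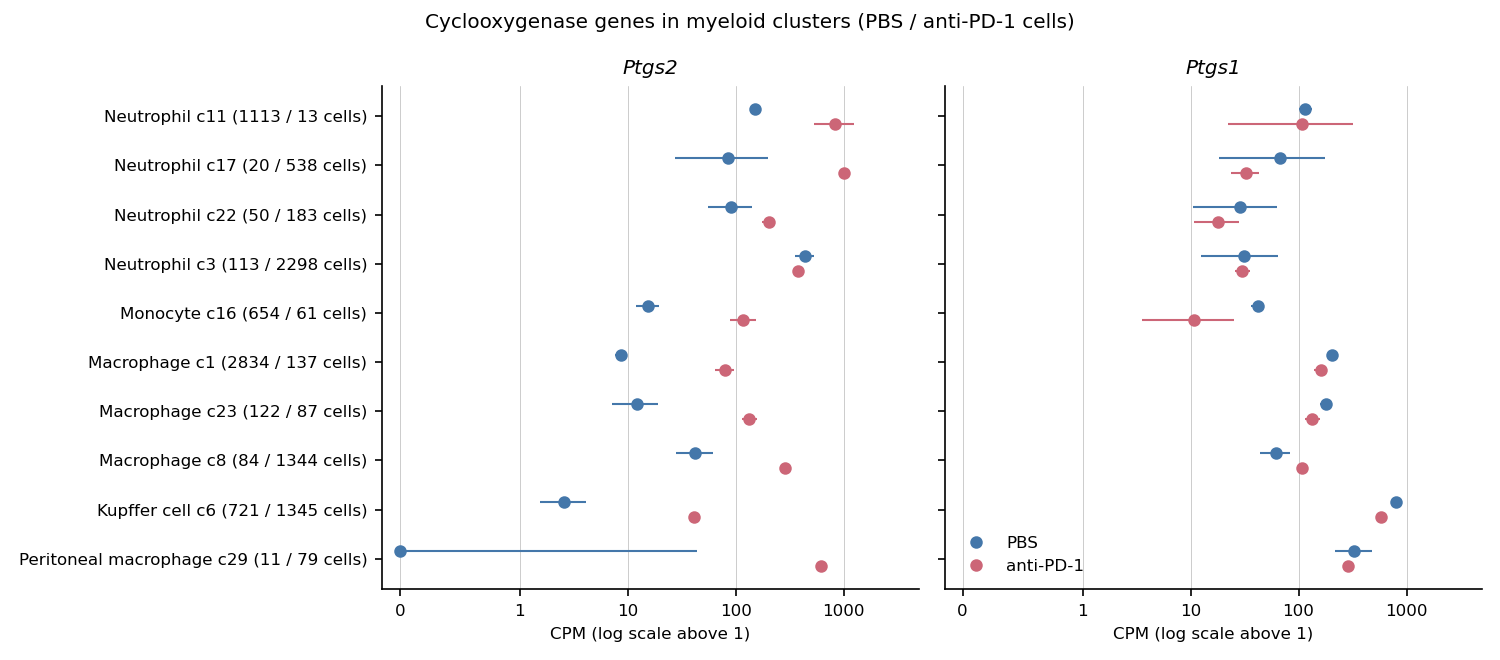
*Ptgs2* (left) and *Ptgs1* (right) in CPM (x axis, log scale above 1) in the myeloid clusters of at least 10 cells per library (y axis, with PBS and anti–PD-1 cell numbers), blue for PBS and red for anti–PD-1, with exact Poisson 95% intervals. Dendritic cell clusters are not drawn. *Ptgs2* is higher in anti–PD-1 in all macrophage, monocyte and Kupffer cell clusters drawn but not in neutrophil c3, and *Ptgs1* shows no shift of one direction.

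*Ptgs1* was highest in Kupffer cells, at 835 CPM in PBS (810 to 861) and 574 CPM in anti–PD-1 (560 to 588), a log2 ratio of −0.54 (−0.59 to −0.48). Endothelial cells had 303 and 338 CPM (0.15, −0.11 to 0.41), and macrophages 197 and 148 CPM (−0.40, −0.47 to −0.32). Within macrophage clusters the *Ptgs1* ratio was −0.32 in c1 (−0.53 to −0.12) but 0.74 in c8 (0.32 to 1.18). Within the monocyte cluster c16 it was −1.56 (−2.48 to −0.61, 181 and 5 UMIs), beside −0.42 in all monocytes (−0.86 to 0.01). Among classes with at least 50 cells in both libraries, *Ptgs1* passed 2-fold downward only in neutrophils. There it went from 97.8 CPM (222 UMIs) to 31.6 CPM (228 UMIs), a log2 ratio of −1.49 (−1.74 to −1.24). The direction was opposite to that of *Ptgs2* in the same cells. In Y-positive neutrophils the ratio was −0.81 on 9 and 99 UMIs, with an interval from −1.71 to 0.22. Within c3 *Ptgs1* had 31.1 CPM (7 UMIs) and 30.2 CPM (154 UMIs, ratio −0.04, −0.996 to 1.02), and within c11 115 CPM (205 UMIs) and 108 CPM (3 UMIs, −0.09, −2.15 to 1.43). These counts were too few to show whether the libraries differed within a cluster. In fibroblasts *Ptgs1* had 37.0 CPM in PBS and 78.8 CPM in anti–PD-1 (1.00, 0.57 to 1.42). This was just under the 2-fold limit with 5 CPM added and 2.13-fold without. The ratio was 0.37 within cluster c15 (0.03 to 0.71) and 0.22 within c27 (−0.44 to 0.90).

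*Ptges*, the inducible terminal synthase of prostaglandin E2, was a low gene in most classes. With 5 CPM added it passed 2-fold in none of the 7 in which it was measured, when all cells of a class were summed. Without the added CPM, *Ptges* was 2.10-fold lower in tumor or biliary epithelial cells and 2.28-fold lower in T cells. On that scale it was 2.15-fold higher in fibroblasts, 2.75-fold in macrophages and 3.05-fold in monocytes. It had 21.9 CPM in PBS and 10.4 CPM in anti–PD-1 in tumor or biliary epithelial cells (−0.80, −1.24 to −0.35), and 17.9 and 38.3 CPM in fibroblasts (0.92, 0.35 to 1.48). Among classes with at least 50 cells in both libraries, these 2 had the highest levels. In Y-positive cells the ratio passed 2-fold in both, at −1.20 in tumor or biliary epithelial cells (−2.03 to −0.32, 14 and 12 UMIs) and 1.85 in fibroblasts (0.40 to 3.03, 2 and 28 UMIs). Within the fibroblast clusters c15 and c27 the ratios were 0.36 (−0.39 to 1.11) and 0.27 (−0.66 to 1.24), and the share of fibroblasts in c27 was 12.2% in PBS and 35.5% in anti–PD-1. Peritoneal macrophages had 52.1 CPM (4 UMIs) and 102 CPM (47 UMIs) by the gate, but 235 CPM (20 UMIs) and 101 CPM (120 UMIs) by the cluster c29 described below (−1.18, −1.85 to −0.45). In macrophages *Ptges* had 1.95 CPM (55 UMIs) and 5.36 CPM (61 UMIs), with 18 of the anti–PD-1 UMIs in 1 cell. Macrophages held 13.8% (PBS) and 17.8% (anti–PD-1) of all *Ptges* UMIs.

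*Hpgd* encodes 15-hydroxyprostaglandin dehydrogenase, which starts the breakdown of prostaglandins. As with *Ptgs1*, its highest level was in Kupffer cells, 1029 CPM in PBS and 814 CPM in anti–PD-1 (−0.34, −0.39 to −0.29). It had 174 and 108 CPM in macrophages (−0.67, −0.75 to −0.58), 179 and 129 CPM in monocytes (−0.46, −0.65 to −0.26) and 95.4 and 96.6 CPM in tumor or biliary epithelial cells (0.02, −0.20 to 0.23). In Y-positive macrophages it had 223 and 109 CPM, past 2-fold downward (−1.003, −1.14 to −0.86), and its ratio was −0.65 within c1, −0.52 within c8 and −1.02 within c23. The Y-positive ratio was also past 2-fold downward in cDC1 (−1.99, 16 and 17 UMIs) and endothelial cells (−1.69, 41 and 19 UMIs). The monocyte direction turned within cluster c16, with 197 and 358 CPM (0.85, 0.60 to 1.09), and Y-positive monocytes had 464 and 130 CPM (−1.80). As given above for macrophages, the gate's monocytes lay in different clusters, 83.8% in c16 in PBS and 63.6% in c8 in anti–PD-1. In fibroblasts it was higher with anti–PD-1, at 13.3 CPM (32 UMIs) and 41.6 CPM (38 UMIs, 1.35, 0.77 to 1.91), but the ratio was 0.28 after thinning, and 0.76 and 0.13 within the fibroblast clusters c15 and c27. The Kupffer cell markers, of the class with the most *Hpgd* and *Ptgs1*, summed to 123 CPM in PBS and 299 CPM in anti–PD-1 fibroblasts, 121 and 329 CPM in T cells and 115 and 342 CPM in tumor or biliary epithelial cells, against 25410 and 18570 CPM in Kupffer cells. Their part in the *Hpgd* and *Ptgs1* ratios was not tested. Macrophages of the anti–PD-1 library therefore had more *Ptgs2* and less *Hpgd* RNA per UMI than those of the PBS library.

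The receptor genes *Ptger2* and *Ptger4* encode EP2 and EP4, which both raise cAMP when they bind prostaglandin E2. *Ptger4* had 47.6 CPM (1342 UMIs) in PBS and 104 CPM (1188 UMIs) in anti–PD-1 macrophages, a log2 ratio of 1.06 (0.95 to 1.16). The share of thinned macrophages with a *Ptger4* UMI was 4.48% in PBS and 9.30% in anti–PD-1. In Y-positive macrophages the ratio was 1.41 (1.17 to 1.67), and within clusters it was 0.43 in c1, 0.49 in c8 and 0.51 in c23. In Kupffer cells *Ptger4* had 9.07 and 33.6 CPM (1.46, 1.15 to 1.76), but the thinned shares of 1.48% and 1.62% of cells were close. Endothelial cells had 13 and 8 UMIs (1.22, 0.25 to 2.12), and the ratio was 0.31 without the top cell of each library and −1.58 with the stricter gate, on 2 and 0 UMIs. T cells and NK cells, in which *Ptger4* was also well detected, had 68.9 and 64.7 CPM (−0.08, −0.21 to 0.05) and 82.5 and 111 CPM (0.40, 0.08 to 0.73). The T cell clusters differed in direction, with ratios of 0.72 in c4 (0.34 to 1.09) and 0.29 in c5 (0.06 to 0.52). The ratio was −0.06 in c7 (−0.32 to 0.21) and −0.72 in c13 (−1.07 to −0.36). In Y-positive T cells it was −0.33 (−0.63 to −0.01). In Y-positive cDC1 the ratio was 2.02 (0.44 to 3.54, 2 and 51 UMIs), beside 0.63 in all cDC1. The macrophage value was at the 2-fold limit, at 0.97 after thinning and 0.99 with at least 200 detected genes and no upper limit. The interval over all T cells lay below this limit.

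*Ptger2* was past 2-fold downward in monocytes, from 16.7 CPM (53 UMIs) to 3.71 CPM (9 UMIs, −1.32, −1.81 to −0.76), and in cDC1, from 34.8 CPM (32 UMIs) to 9.21 CPM (9 UMIs, −1.48, −2.25 to −0.68). The ratio was −0.79 in monocytes with the stricter gate and −0.79 in cDC1 after thinning. In macrophages it had 12.3 and 7.11 CPM (−0.51, −0.73 to −0.29) and in Kupffer cells 25.2 and 21.6 CPM (−0.18, −0.44 to 0.08). In none of the 7 classes in which it was measured did the interval of its ratio lie above 0, when all cells of a class were summed. Y-positive fibroblasts had a ratio of 2.05 (0.02 to 2.73, 0 and 11 UMIs), beside 0.45 in all fibroblasts (−0.31 to 1.21). In neutrophils the ratio was −0.63, and −1.39 in Y-positive cells (−2.47 to −0.17, 6 and 37 UMIs). *Ptger4* overlaps *Ttc33* on the opposite strand and *Ptger2* overlaps 2 noncoding genes, and as strand use in counting is not given in the sources used here, their counts carry that uncertainty.

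*Alox15* encodes 12/15-lipoxygenase, an enzyme that marks resident macrophages of the peritoneum and oxidizes fatty acids and membrane lipids. Its UMIs were concentrated in few cells. Cluster c29, led by *Prg4*, *Saa3*, *Alox15* and *Serpinb2* and like peritoneal macrophages by the markers, held 11 PBS and 79 anti–PD-1 cells. These cells had 54.9% of all *Alox15* UMIs in the PBS library (301 UMIs) and 87.9% in the anti–PD-1 library (3574 UMIs). The level within them was 3540 CPM in PBS and 3006 CPM in anti–PD-1, so the anti–PD-1 library held more of these cells, at a level that was not higher. By the gate, peritoneal macrophages were 10 and 31 cells, and their level was higher in anti–PD-1, at 3546 and 4158 CPM (0.23, 0.05 to 0.42).

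The anti–PD-1 levels of *Alox15* in macrophages, monocytes, Kupffer cells and B cells fell without cells that had at least 2 peritoneal macrophage markers. These were 701 cells in PBS and 707 in anti–PD-1, over all classes, far more than the 11 and 79 of cluster c29. In PBS the level then fell only in macrophages of these classes. It was 0.632 and 0.678 CPM in monocytes with and without these cells. The values were 1.21 and 1.40 CPM in Kupffer cells and 0.871 and 0.890 CPM in B cells. Without the top cell of each library the levels fell in both libraries. The *Alox15* ratios after either step depend on the added 5 CPM. In macrophages it had 3.58 CPM (101 UMIs) and 25.4 CPM (289 UMIs, 1.82, 1.64 to 2.01). In both libraries 1 cell held many of these UMIs, 106 of them in anti–PD-1, and 42 and 183 UMIs remained without the top cells. The ratio was 1.70 without the top cells, or 10.8-fold without the added CPM (7.69 to 15.5), and 0.22 in macrophage clusters. Without the cells with peritoneal macrophage markers 17 and 55 UMIs remained, or 0.617 and 5.11 CPM, a ratio of 0.85 on this scale but 8.28-fold without the added CPM (4.74 to 15.2), beside 7.09-fold before. In monocytes it had 0.632 and 90.0 CPM (4.08, 3.66 to 4.31), and 1 cell held 207 of the 218 anti–PD-1 UMIs. With the cell of the most *Alox15* UMIs left out of each library the ratio was 0.85, on 0.317 CPM (1 UMI) and 4.59 CPM (11 UMIs). In Kupffer cells it had 1.21 and 14.0 CPM (1.61, 1.27 to 1.87), with 113 of 166 UMIs in 1 cell and a ratio of 0.71 without the top cell of each library. In B cells it had 2 and 104 UMIs (2.05, 1.53 to 2.35), 66 of them in 1 cell, a ratio of 1.27 without the top cells and of 0.91 without cells with peritoneal macrophage markers. Once cells with peritoneal macrophage markers were left out, the log2 ratio was below 1 in macrophages, monocytes, Kupffer cells and B cells, with levels of 0.617 to 1.40 CPM in PBS and 3.85 to 6.09 CPM in anti–PD-1. Without the added CPM these levels were still 6.71-fold higher with anti–PD-1 in monocytes (1.43 to 63.0, 2 and 10 UMIs), 2.76-fold in Kupffer cells (1.16 to 7.99) and 6.84-fold in B cells (1.74 to 58.9, 2 and 32 UMIs). A low difference of this kind was not particular to these classes. With all cells summed, T cells had 0.749 and 3.77 CPM (5.03-fold, 8 and 58 UMIs). Neutrophils had 1.76 and 8.30 CPM (4.71-fold, 4 and 60 UMIs). The source of this low signal was not tested. The tumor or biliary epithelial class held 16.1% of the PBS library's *Alox15* UMIs and had 14.6 and 8.74 CPM (−0.51, −0.97 to −0.03).

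Cluster c29 also carried other genes of the set. In anti–PD-1 it held 35.1% of the *Ptges* UMIs, 34.0% of *Ltc4s*, 15.2% of *Alox5*, 7.06% of *Ptgs2* and 6.24% of *Alox5ap*. *Ptgs2* had no UMI in its 11 PBS cells and 727 UMIs, or 611 CPM, in its 79 anti–PD-1 cells. The median UMIs per cell of the cluster were 7439 and 14560, and in the gate's peritoneal macrophages 13 of the 14 early response and dissociation genes were at least 2-fold higher, with sums of 2242 and 15564 CPM. Their part in the *Ptgs2* value was not tested. *Ltc4s* had 776 CPM in PBS and 534 CPM in anti–PD-1 (−0.53, −0.90 to −0.15). Of the 79 cells, the gate left 32 without a class and placed 13 among macrophages and 2 among monocytes. The 8 peritoneal macrophage markers summed to 42.9 CPM in PBS and 223 CPM in anti–PD-1 macrophages of the gate.

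**Figure D5:**
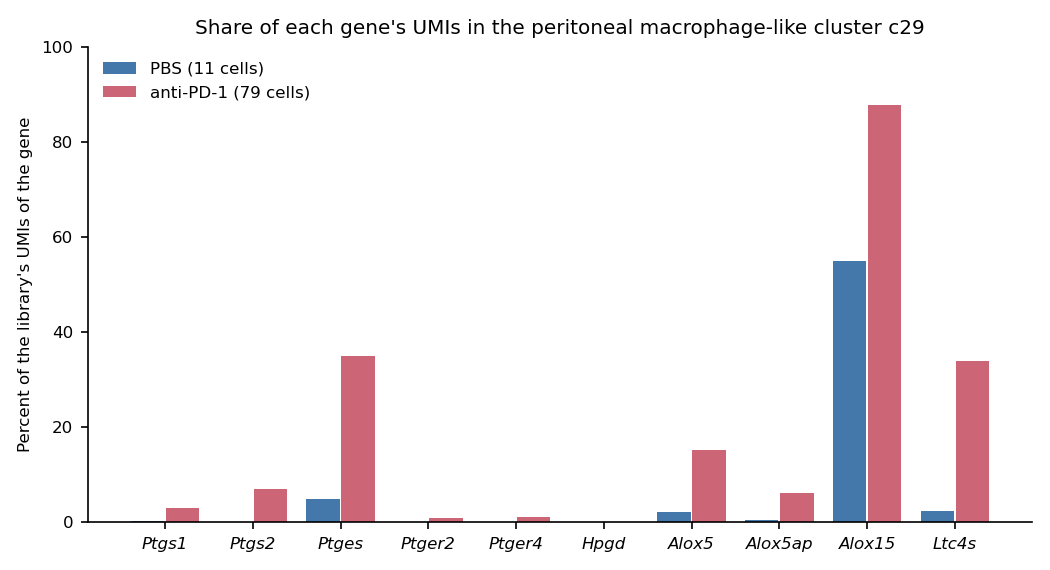
Percent of each gene's UMIs in the whole library (y axis) that lay in the peritoneal macrophage-like cluster c29, for the 10 genes (x axis), with blue bars for PBS (11 cells) and red bars for anti–PD-1 (79 cells). The *Alox15* bars reach 54.9% and 87.9%, and in anti–PD-1 *Ptges* and *Ltc4s* follow at 35.1% and 34.0%.

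*Alox5* encodes 5-lipoxygenase and *Alox5ap* the protein FLAP that presents arachidonic acid to it, the first step to leukotrienes. *Alox5* was a neutrophil gene among the large classes, at 151 CPM in PBS (344 UMIs) and 82.9 CPM in anti–PD-1 (599 UMIs), with a log2 ratio of −0.83 (−1.02 to −0.65). The ratio was −0.66 within c3 (−1.16 to −0.12), so the lower level was also present inside the cluster in which *Ptgs2* did not differ. That interval includes −0.27, the median over all measured genes in neutrophils. Within c17 the *Alox5* ratio was 0.77 (−0.71 to 2.63, 3 and 137 UMIs). *Alox5ap* had 1587 and 1154 CPM in neutrophils (−0.46, −0.51 to −0.40), 493 and 402 CPM in macrophages (−0.29, −0.34 to −0.25) and 385 and 194 CPM in Kupffer cells (−0.97, −1.06 to −0.88). In T and B cells, with 36.2 and 41.4 CPM and 74.9 and 77.8 CPM, the libraries were close. With 5 CPM added, neither gene passed 2-fold in any class with at least 50 cells in both libraries. In Y-positive Kupffer cells, however, *Alox5ap* had a ratio of −1.35 (−1.50 to −1.20). Without the added CPM, *Alox5* was 4.38-fold lower in tumor or biliary epithelial cells, at 3.64 CPM (22 UMIs) and 0.832 CPM (2 UMIs, −0.57, −0.91 to −0.05). Within the tumor or biliary epithelial cluster c0 it had 3.33 and 3.60 CPM. In the smaller basophil or mast cell class *Alox5ap* had 2113 CPM (116 UMIs) and 526 CPM (50 UMIs), 4.02-fold lower, in 19 and 16 cells. The make-up of that class differed, since the mast cell protease gene *Tpsb2* had 22092 and 2609 CPM and the basophil protease gene *Mcpt8* 2750 and 3409 CPM, and the part of this in the *Alox5ap* value was not tested. In Y-positive neutrophils the ratio was −0.34 for *Alox5* (−1.05 to 0.46, 15 and 242 UMIs) and −0.47 for *Alox5ap* (−0.66 to −0.27), and within c17 *Alox5ap* was at 0.24 (−0.20 to 0.71).

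*Ltc4s* encodes leukotriene C4 synthase, which joins glutathione to leukotriene A4 to start the cysteinyl leukotrienes. Its ratio had opposite signs in neutrophils and monocytes, and neither passed 2-fold under all alternatives. In neutrophils it had 39.2 CPM (89 UMIs) in PBS and 14.9 CPM (108 UMIs) in anti–PD-1 (−1.15, −1.49 to −0.80). The ratio was −0.60 in Y-positive neutrophils (−1.84 to 0.78), −0.86 with median-of-ratios scaling and 0.24 within c3 (−1.21 to 1.46), where PBS had 2 UMIs. In monocytes it had 3.79 CPM (12 UMIs) and 14.0 CPM (34 UMIs, 1.11, 0.57 to 1.62), but the ratio was 0.33 without cells with at least 2 peritoneal macrophage markers. In macrophages it had 60.2 and 38.4 CPM (−0.59, −0.73 to −0.45), in Kupffer cells 42.7 and 25.2 CPM (−0.66, −0.89 to −0.44) and in tumor or biliary epithelial cells 39.2 and 49.5 CPM (0.30, 0.01 to 0.59). In the last class the ratio was 1.46 in Y-positive cells (0.65 to 2.29, 9 and 78 UMIs). It was 0.43 in cluster c0 (0.18 to 0.68), which held 77.7% of the PBS and 81.2% of the anti–PD-1 cells of the class. In cluster c20 the ratio was −1.22 (−2.15 to −0.22, 36 and 5 UMIs), so no direction held throughout. Within c1 it had 63.2 and 60.2 CPM and within c8 27.1 and 26.0 CPM, so the macrophage difference was not seen within either cluster. *Ltc4s* overlaps a noncoding gene on the opposite strand.

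The wider pathway, from phospholipases to receptors, was read from a list of 56 genes that includes the 10. Of the 46 others, 32 were measured in macrophages, where 1 was at least 2-fold higher and none lower, with a median ratio of −0.10, beside 2.12% higher, 0.323% lower and a median of −0.13 over all measured genes. That gene was *Fpr2*, a receptor for formyl peptides and lipoxins, with 10.2 CPM in PBS and 30.3 CPM in anti–PD-1 (1.21, 1.04 to 1.39). In neutrophils 31 were measured and 3 were at least 2-fold lower, with a median of −0.34, beside 4.4% lower and a median of −0.27 over all measured genes. *Ltb4r1*, the receptor by which leukotriene B4 attracts leukocytes, had 92.9 and 38.6 CPM (−1.17, −1.41 to −0.92), *Alox12e*, an epidermal 12-lipoxygenase, 19.4 and 3.32 CPM (−1.55), and *Dpep2*, a dipeptidase that cleaves leukotriene D4, 9.69 and 1.11 CPM (−1.27). None of the 27 measured in monocytes or the 29 in Kupffer cells passed 2-fold. Of the 8 other prostanoid synthases, all measured in macrophages, none passed 2-fold, 4 had intervals below 0 and 1 above, with *Tbxas1*, the thromboxane synthase, at 154 and 143 CPM (−0.10) and *Hpgds*, the hematopoietic prostaglandin D synthase, at 225 and 159 CPM (−0.48).

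For each gene, the genes with the most similar pattern were found by Pearson correlation of log2(CPM + 5) over 28 sums of class and library, among 12190 genes. These values describe the sums, which share libraries and depth. *Ptgs2* was closest to *Il1b* (r = 0.86), *Trem1* and *Slc16a3*, and *Ptgs1* to *Plod1* (0.94), *Itga9* and *Mrc1*. *Alox5ap* was closest to *Nfam1* (0.94), *I830077J02Rik* and *Mknk1*, and *Alox5* to *Scrg1* (0.96), *Gm34589* and *Sycp2*. *Ptger4* was closest to *Mapkapk3* (0.82), *Rbpj* and *Bcl2a1d*, and *Hpgd* to *Dram2* (0.89), *Hs6st1* and *Rcan1*. *Ptges* was closest to *Efemp1* (0.89), *Hspb2* and *Emp2*. Lower maxima were found for *Alox15* (*Il27*, 0.74, then *Serpinb2* and *Cd14*), *Ltc4s* (*Dock4*, 0.78, then *Smagp* and *Pwwp2b*) and *Ptger2* (*Pigs*, 0.69, then *Lcp2* and *Ifngr1*). The cyclooxygenases thus had different nearest genes.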

How the data were processed

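Single-cell RNA-Seq libraries of 2 samples (GEXSCOPE kit, Singleron) were analyzed from the raw UMI counts deposited by the authors, 1 count matrix per library; the submitters' processing notes name mm10 and Seurat 4.3. Use of strand and of multimapping reads is not given in the sources used here. Depth is given per library in the results, and its precision by exact intervals at the 95% level, for counting error only.

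Cells with 500 to 5000 detected genes and at most 10% mt- UMIs were kept. A cell took the class of which it had the largest share of the markers with a UMI, if it had at least 3 and the share exceeded the next by at least 0.1; these thresholds were set after the gated cell numbers were seen. UMIs were summed by class and library. Ratios used 5 added CPM, and interval ends came from both exact Poisson intervals. Clusters came from Leiden clustering on the 2000 most variable genes of each library, joined into 1 list (30 components, 15 neighbors, resolution 1). The 10 genes, *Xist* and the Y-linked genes were left out of this list. All 10 genes were named, then other pathway genes at least 2-fold different with at least 20 UMIs in macrophages, monocytes or neutrophils, and for each gene the 3 with the highest correlation. The genes and lists were chosen with earlier results of these data known. Samples were grouped by the treatment label. No test was possible with 1 library per group. The calculations were tested on simulated data. Alternatives to pseudocount, cell filters, gate, clusters, scaling, depth and weighting were planned; leaving out cells with peritoneal macrophage markers and leaving out the top cell were added after the data were seen. Gene coordinates came from GENCODE vM21 (GRCm38), with 32445 gene IDs matched. Python 3.11.15, numpy 2.4.6, scipy 1.17.1, pandas 2.3.3, igraph 0.11.9 and leidenalg 0.10.2 were used.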

Additional observations from a re-analysis of the deposited data

Results flagged for a closer look

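*Ltc4s* had ratios of opposite sign in monocytes (log2 1.11) and neutrophils (−1.15), and the difference was not tested. The neutrophil ratio was −0.60 in Y-positive cells (−1.84 to 0.78) and −0.86 with median-of-ratios scaling, and the monocyte ratio was 0.33 without cells with peritoneal macrophage markers. In peritoneal macrophage-like cells of the gate, a class too small for the comparisons, *Ptgs2* had 756.9 CPM in anti–PD-1 (349 UMIs in 31 cells) and no UMI in the 10 PBS cells, whose interval reaches 48.1 CPM. In the same cells 13 of 14 early response and dissociation genes were at least 2-fold higher in anti–PD-1, with sums of 2242 and 15564 CPM, and their part was not tested.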

How the results depend on the processing

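No paired analysis was possible because each group had 1 library, and no library could be left out. Of 23 log2 ratios past 2-fold, 220 of 251 alternative values stayed past it in the same direction, 29 did not and 2 reversed, *Ltc4s* in monocytes (−1.20 after thinning to 1000 UMIs, on 3 and 0 UMIs) and *Ptger4* in endothelial cells (−1.58 with the stricter gate, on 2 and 0 UMIs). Clusters gave no value for cDC1, which formed none of their own. With 1 CPM added, the macrophage ratios were 4.37 for *Ptgs2* and 2.53 for *Alox15*. With median-of-ratios scaling they were 4.15 for *Ptgs2*, 1.26 for *Ptger4* and 2.01 for *Alox15*, and 1.93 for neutrophil *Ptgs2*. In Leiden clusters *Ptgs2* was 4.16 in macrophages and 2.59 in monocytes, and macrophage *Alox15* was 0.22. In Y-positive cells, *Ptgs2* was 4.38, 2.96 and 1.82 in macrophages, monocytes and neutrophils, and macrophage *Ptger4* and *Alox15* were 1.41 and 2.86. Thinning gave 3.57 for macrophage *Ptgs2* and 2.26 for *Alox15*. The stricter gate gave 2.46 for macrophage *Alox15* and 1.37 for neutrophil *Ptgs2*. Without cells with peritoneal macrophage markers, macrophage *Alox15* was 0.85, though 8.28-fold (0.617 and 5.11 CPM) without the added CPM. Pathway genes past 2-fold numbered 4 in macrophages, and 4 to 6 under the alternatives. In monocytes they numbered 4, but 8 with 1 CPM added and 7 in clusters, and in neutrophils 6, but 12 with 1 CPM added. The share of all measured genes past 2-fold under these alternatives is not given here, so nothing is read from these counts. The causes of these shifts were not tested. Treatment, animals and library preparation cannot be told apart with 1 library per group.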
